A study of Mus musculus with 6 samples.

Results

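Mucins are proteins whose long serine- and threonine-rich stretches are densely covered with O-linked glycans, and the enzymes that build, branch and cap those glycans are encoded by several large gene families. Their transcripts were profiled in entire mouse lungs at E14.5, the stage at which the lung epithelium is branching. The genes described here are those whose only annotated symbol on the array begins with Muc, Galnt, Gcnt, B3gnt, B3galt, B4galt, Fut, St3gal, St6gal, St6galnac or St8sia followed by a number (or, for Galnt, by the letter l). The rule found 82 genes among the 19938 genes compared, 12 of them mucins and 70 of them enzymes, and 20 of the enzymes were sialyltransferases. B4galt2 shares its feature with a second gene and was left out.

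The study compared 3 mutant with 3 control lungs, 1 array per embryo. Mutant embryos carried Shh-Cre and floxed alleles of Foxp1, Foxp2 and Foxp4, which encode forkhead transcription factors. Foxp2 is taken from the series title, since the mutants' own genotype label names Foxp1 flox/flox in its place. Control embryos carried Shh-Cre, so both groups share the Cre allele, and both were on a mixed C57BL/6 and 129X1 background. Shh-Cre is active in the endoderm, which forms the lung epithelium, whereas the mesenchyme, vessels and blood cells that make up much of a whole lung lie outside its main domain. The study addressed the part of these factors in lung endoderm identity.

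In a mucin-type glycan, a Galnt enzyme attaches the first sugar, N-acetylgalactosamine, to serine or threonine. Core and branching enzymes (Gcnt, B3gnt) and galactosyltransferases (B3galt, B4galt) extend it, and fucosyltransferases (Fut) and sialyltransferases (St3gal, St6gal, St6galnac, St8sia) decorate and end the chain. Several members of these families act instead on N-glycans, on glycolipids or on the linker of proteoglycans. In the lung, transmembrane mucins such as Muc1 line the apical face of the epithelium, while the gel-forming mucins Muc5ac and Muc5b belong to the mature airway secretory cells.

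Expression is given as the log2 value that the authors derived with the robust multi-array average (RMA), and a difference is mutant minus control. The genotype check was limited to transcript levels. Foxp2 was lower by a log2 difference of -0.95 and Foxp4 by -0.64 (limma adjusted p of 4.75e-05 and 0.00592), and Foxp1 stood at -0.31 without passing (adjusted p = 0.0661). Between arrays the correlation over all genes was at least 0.9937 within mutants, at least 0.9975 within controls, and between 0.9883 and 0.9913 across the groups. In the lung epithelium marker list 11 of 15 measured genes fell, 0 rose and 4 did not pass. These 4 were Cdh1 (-0.19), Cldn7 (-0.01), Krt19 (-0.14) and Krt18 (-0.44, limma adjusted p = 0.0540). The median difference per gene was -0.49, and the largest falls were those of Sftpc (-5.58) and Cldn18 (-4.77). The list's median level was 8.43, 8.94 and 8.58 in mutants 1 to 3 and 9.96, 9.99 and 9.87 in controls 1 to 3. In the smooth muscle list 7 of 10 fell and 1 rose, and the median difference per gene was -1.58. Its median level was 8.39, 7.60 and 7.45 in mutants and 9.47, 9.36 and 9.45 in controls. The leukocyte list had 2 of 10 genes higher (median 7.82, 8.26 and 7.96 in mutants, 7.72, 7.68 and 7.76 in controls), the endothelial list 1 of 10 higher (10.08, 10.04 and 10.28 against 10.17, 10.21 and 10.17 in controls), and the nerve and Schwann precursor list 2 of 7 lower (6.79, 6.46 and 6.58 against 6.72, 6.59 and 6.68 in controls). In the heart muscle list 0 of 10 passed in limma, also at an unadjusted p under 0.05, but mutant 1 stood apart at a median of 9.04, against 6.98 and 6.79 in mutants 2 and 3 and between 7.27 and 7.36 in controls.

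Of the 82 genes, 22 (26.8%) passed the limma test with an adjusted p under 0.05, against 7.66% of all genes tested. Mutant lungs had 12 of these at a higher level and 10 at a lower level. Among all genes 3.84% were higher and 3.83% lower. The mutant values lay wholly on one side of the control values in 40 of the 82 genes, which is 48.8% against 25.9% of all genes, and this held for each of the 22 that passed. They lay above the controls in 21 genes (13.4% of all genes did) and below in 19 (12.6% of all genes did). The median difference over the 82 genes was -0.004, beside -0.006 over all genes, and rises and falls were spread over most families. Muc1 was the 1 gene with a large change. The 12 rises lay between 0.27 and 1.09 and the other falls between -0.39 and -0.71. A change of at least 1.5-fold was reached by 8 of the 22 and of at least 2-fold by 2, Muc1 and St6galnac5. Without mutant 1, which carried the high heart muscle values, 20 genes passed, and 19 of these were among the 22.

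**Figure D1:**
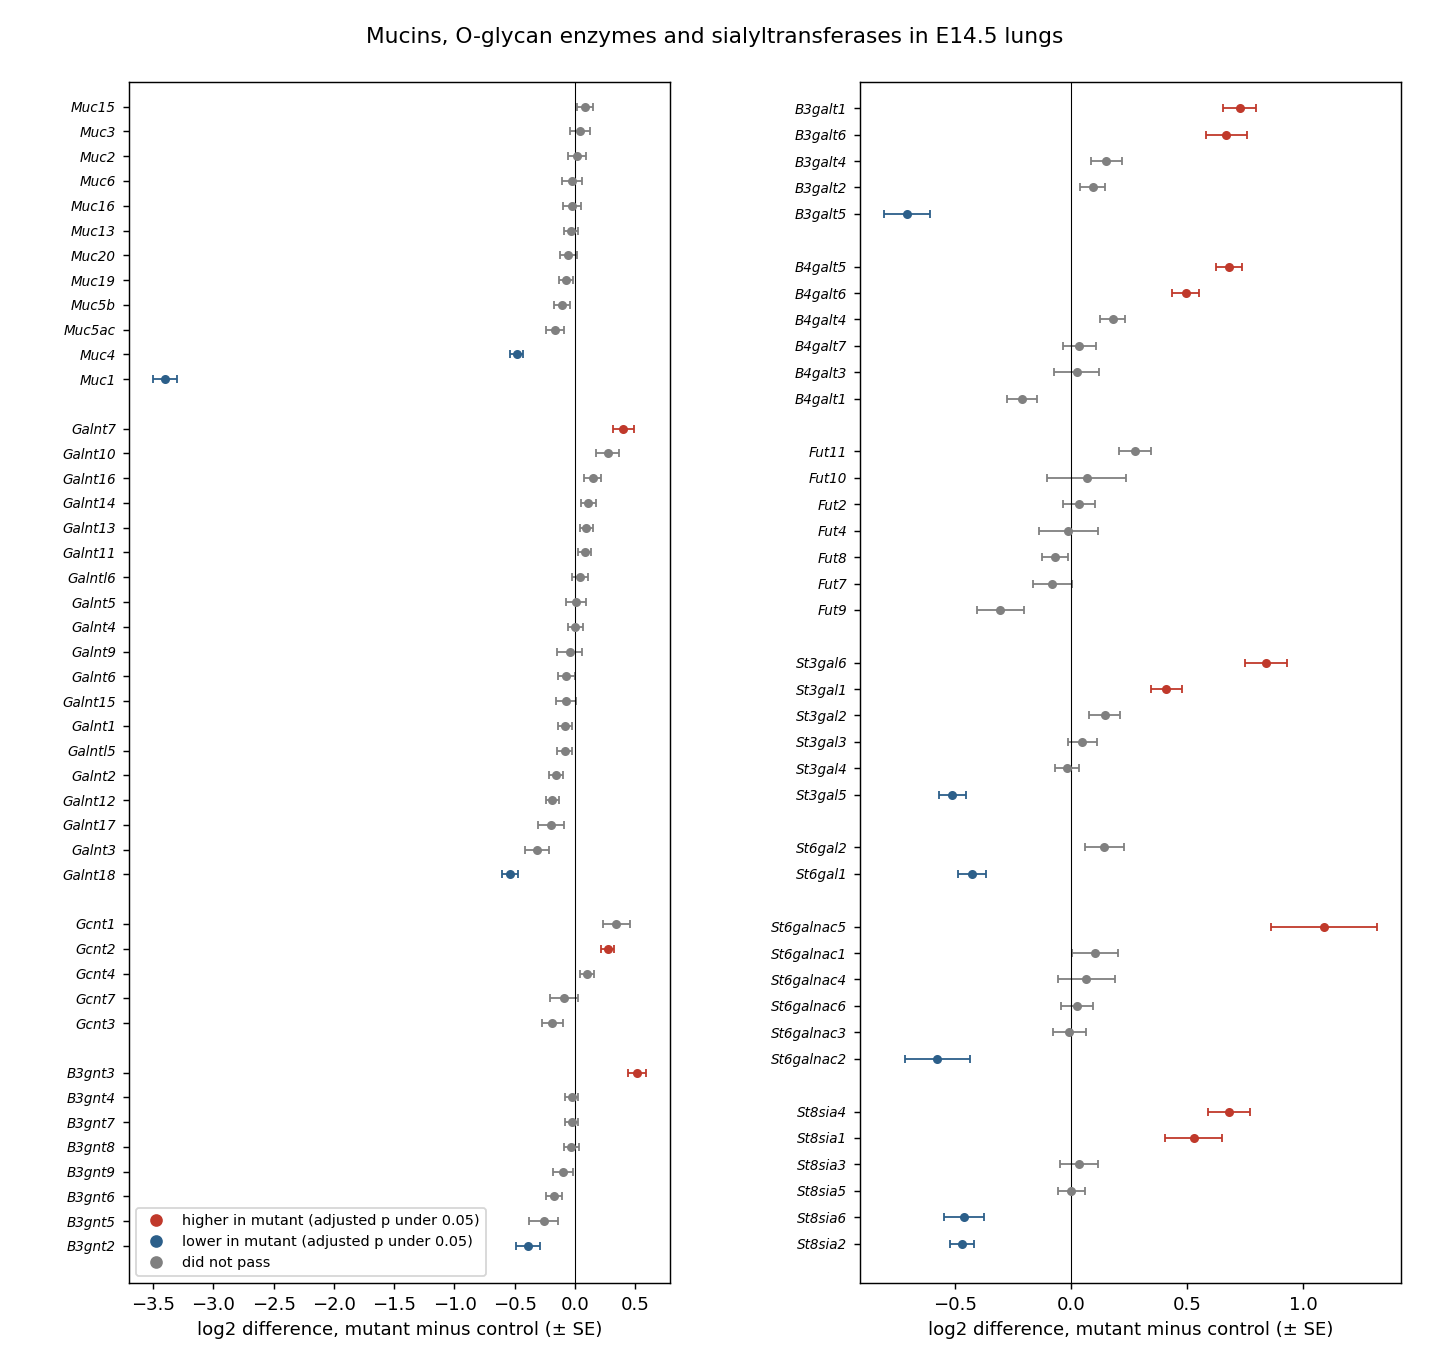
Log2 difference, mutant minus control, of each of the 82 genes, grouped by family and sorted within it; points are limma estimates and bars their SE (n = 3 per group), red for genes higher in the mutants with an adjusted p under 0.05, blue for lower, grey for those that did not pass. Both panels have their own horizontal scale, and Muc1 stands apart at -3.40 while all other differences lie between -0.71 and 1.09.

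Among the mucins, 2 of 12 fell, 0 rose and 10 did not pass. Muc1, the transmembrane mucin of the apical epithelial surface, read 5.60, 5.78 and 5.55 in mutants 1 to 3 and 9.01, 8.90 and 9.22 in controls 1 to 3. All mutant arrays were low and all control arrays high, with no overlap. The difference was -3.40 ± 0.10 (SE, n = 3 per group, limma adjusted p = 2.51e-06), a 10.6-fold lower signal. The mutant values lie at the upper end of the values that silent genes give on these arrays, 4.15 to 5.77. These were judged by Xist and the Y-linked genes Eif2s3y, Kdm5d and Uty in embryos of the sex that lacks them. Sex was inferred from the same values, and a value counted as silent when it lay below the middle of that gene's own range. The highest silent value, 5.77, is taken as the silent level. Set against 5.77 Muc1 was at least 9.64-fold lower. In a whole lung, fewer epithelial cells and less Muc1 RNA per cell cannot be told apart. For each gene below, in either direction, a change in the number of cells of a type and a change in RNA per cell likewise cannot be told apart.

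Muc4, a larger transmembrane mucin of airway epithelium, fell to 6.01, 5.94 and 6.07 in mutants, against 6.49 in each of the 3 controls. The control arrays agreed within 0.0014 (SD) and lay above all mutant arrays. The difference was -0.49 ± 0.06 (adjusted p = 0.00187). The control level itself is close to the silent level, so a larger fall may be hidden.

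The gel-forming mucins of goblet cells and glands gave low signals in both groups. Muc5ac read 5.73, 5.52 and 5.71 in mutants and 5.77, 5.81 and 5.87 in controls. The mutant arrays all lay below the control arrays, but the difference of -0.17 ± 0.07 did not pass (adjusted p = 0.251). Muc5b (-0.11), Muc2 (0.02), Muc6 (-0.02) and Muc19 (-0.08) overlapped between the groups, with adjusted p from 0.422 to 0.949. The membrane-bound mucins Muc3 (0.04), Muc13 (-0.03), Muc15 (0.08), Muc16 (-0.02) and Muc20 (-0.06) overlapped too. Of the 12 mucins, 7 stayed at or under the silent level on every array, namely Muc3, Muc6, Muc13, Muc15, Muc16, Muc19 and Muc20. Silent values ranged from 4.15 to 5.77, so a fall in these genes may be hidden but is not excluded. Over the 82 genes 17 (20.7%) stayed at or under the silent level, against 24% of all genes.

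**Figure D2:**
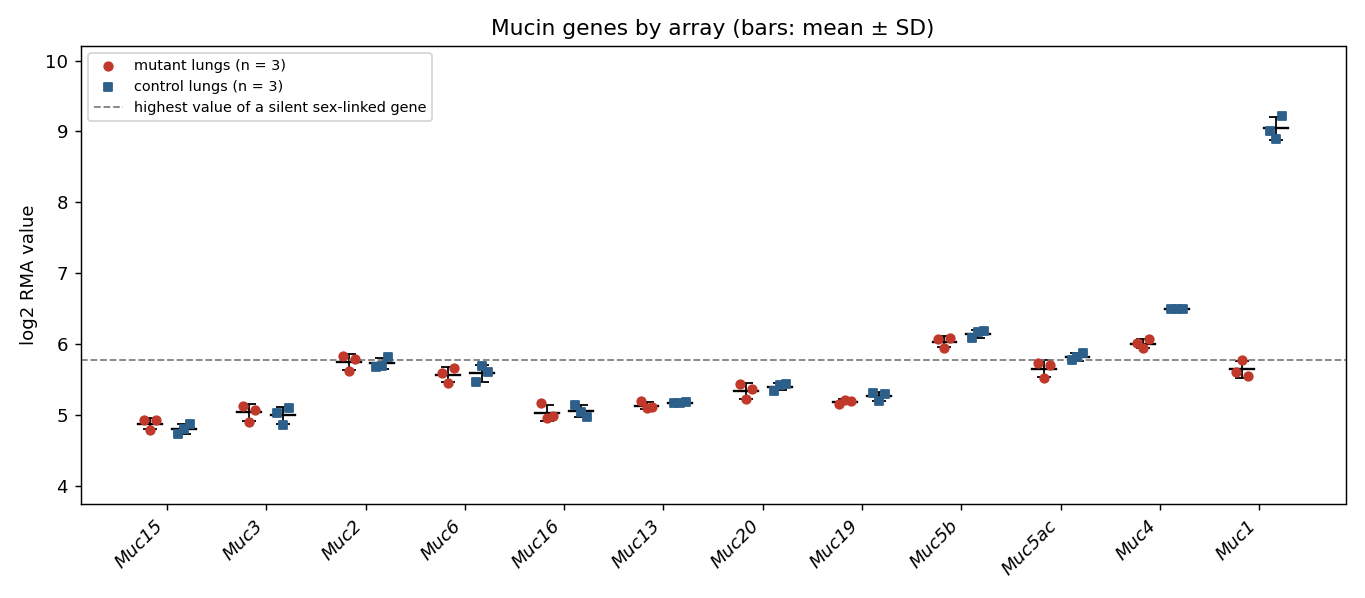
Log2 RMA values of the 12 mucin genes, with 3 mutant arrays (red circles) left of 3 control arrays (blue squares) for each gene; bars give mean ± SD, and the dashed line is the highest value of a silent sex-linked gene, 5.77. Muc1 sits near 9 in controls and at the dashed line in mutants, Muc4 shows a smaller gap, and the other 10 genes lie within 0.5 of the line or below it in both groups.

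The stretches upstream of the starts of Muc1 and Muc4 are shown because these are the mucins whose expression fell. They are the 250 bases before the RefSeq start in GRCm38.p6, 5′ to 3′ on the gene's own strand, with capitals marking the letters TATAAA of the classical promoter box near the start, and the letters GGGCGG of the GC box or, on the other strand, CCGCCC.
Muc1, chr3:89228806-89229055, plus strand: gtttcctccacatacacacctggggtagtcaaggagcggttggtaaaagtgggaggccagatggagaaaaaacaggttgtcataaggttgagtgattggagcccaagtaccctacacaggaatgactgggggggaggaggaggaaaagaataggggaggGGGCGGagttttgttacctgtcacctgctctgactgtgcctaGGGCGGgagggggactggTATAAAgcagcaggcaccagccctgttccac
Muc4, chr16:32735636-32735885, plus strand: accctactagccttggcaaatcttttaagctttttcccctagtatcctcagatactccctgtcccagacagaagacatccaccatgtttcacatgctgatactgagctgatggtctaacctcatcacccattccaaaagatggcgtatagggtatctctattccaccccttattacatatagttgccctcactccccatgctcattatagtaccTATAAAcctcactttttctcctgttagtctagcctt

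TATAAA begins 31 bases before the start of Muc1 and 36 bases before that of Muc4, and GGGCGG begins 91 and 49 bases before the start of Muc1. On both strands of the same window, 14.3% of 27025 genes in the RefSeq promoter table hold a TATAAA match and 35.4% hold a GGGCGG match. The table holds 59 of the 82 genes, of which 8.47% match TATAAA and 59.3% match GGGCGG. The forkhead letters TGTTTAC occur in this window of 2 of the 59 genes (3.39%, against 3.54% of all genes) and the forkhead variant TATTTAT in 4 (6.78% against 6.01%). Of the 17 genes in the table that passed the test, 0 hold either. The NKX2 letters CACTTG occur in 12 of the 59 (20.3% against 13.2%) and in 2 of the 17, B3galt5 and St3gal6. These matches describe letters in a short window and say nothing of binding.

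Of the 19 GalNAc transferases, which start the O-glycan, 1 rose, 1 fell and 17 did not pass (median -0.05). Galnt18 fell to 6.70, 6.77 and 6.88 in mutants, against 7.26, 7.37 and 7.34 in controls (-0.54 ± 0.07, SE, n = 3 per group, adjusted p = 0.00223). The groups were well apart. Galnt7, which prefers peptides that already carry a sugar, rose to 8.76, 8.57 and 8.73 in mutants, against 8.33, 8.39 and 8.14 in controls (0.40 ± 0.08, adjusted p = 0.0276). All mutant arrays lay above the controls, but the call ended without control 1, control 3, mutant 1 or mutant 3 (adjusted p of 0.0817, 0.0976, 0.0657 and 0.0844).

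The broadly expressed initiators Galnt1 and Galnt2 moved little. Galnt1 read 9.90, 9.95 and 9.88 in mutants and 9.98, 9.95 and 10.05 in controls, and the nearly touching groups gave -0.08 ± 0.06 (adjusted p = 0.502). Galnt2 was at -0.16 (adjusted p = 0.168). Galnt3, an initiator of epithelial secretory tissues, read 7.27, 7.59 and 7.35 in mutants and 7.67, 7.86 and 7.64 in controls, a difference of -0.32 ± 0.10 that did not pass (adjusted p = 0.107). It passed without mutant 2, the highest mutant value (-0.41, adjusted p = 0.0233), and with array weights on all 6 arrays (-0.37, adjusted p = 0.0335). Galnt10 (0.27), Galnt11 (0.08) and Galnt13 (0.09) had all mutant values above the controls and Galnt12 (-0.19) and Galnt17 (-0.20) all below, without passing. Galnt4, Galnt5, Galnt6, Galnt9, Galnt14, Galnt15, Galnt16, Galntl5 and Galntl6 overlapped, between -0.09 and 0.15. Galnt6, Galnt13, Galnt14, Galntl5 and Galntl6 were at or under the silent level on every array.

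The next step makes and branches the cores. Of 5 Gcnt genes, 1 rose, 0 fell and 4 did not pass (median 0.10). Gcnt2, which makes the branches of the I blood group, read 7.05, 7.02 and 7.02 in mutants and 6.72, 6.77 and 6.78 in controls. The rise was small but set apart from a narrow spread (0.27 ± 0.05, SE, n = 3 per group, adjusted p = 0.0186), and the call ended without control 1, 2 or 3 (adjusted p of 0.0852, 0.0804 and 0.0717). Gcnt1, the widely expressed core 2 enzyme, read 7.47, 7.80 and 7.35 in mutants and 7.26, 7.12 and 7.22 in controls. Mutant 2 was highest, the groups did not overlap, and the difference of 0.34 ± 0.11 did not pass (adjusted p = 0.123). Gcnt4 (0.10), Gcnt7 (-0.09) and Gcnt3 (-0.19), a mucin-type branching enzyme, gave adjusted p from 0.303 to 0.753.

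Of 8 B3gnt genes, which add N-acetylglucosamine to galactose or to the core, 1 rose, 1 fell and 6 did not pass (median -0.07). B3gnt3, which extends core 1 chains, rose to 6.54, 6.53 and 6.43 in mutants, against 5.89, 5.96 and 6.12 in controls (0.51 ± 0.07, SE, n = 3 per group, adjusted p = 0.00474). Its groups were clearly apart. B3gnt2, the main enzyme of polylactosamine chains, fell to 7.28, 7.13 and 7.46 in mutants, against 7.76, 7.55 and 7.72 in controls (-0.39 ± 0.10, adjusted p = 0.0491). This call lay at the threshold and ended without control 1, 2 or 3 or mutant 1 or 2 (adjusted p of 0.177, 0.0673, 0.180, 0.0951 and 0.0792). It also ended with quantile normalization applied again (0.0509), all features tested (0.0530), a variance trend with robust moderation (0.0503) and array weights (0.0706).

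B3gnt5, which starts the lacto-series glycolipids, read 8.60, 9.11 and 8.78 in mutants and 9.15, 9.10 and 9.02 in controls, and mutant 2 lay among the controls (-0.26 ± 0.12, adjusted p = 0.277). Without mutant 2 it passed at -0.40 (adjusted p = 0.0194), which leaves out the highest mutant value. B3gnt6, the core 3 enzyme of the gut, was at -0.18 and at or under the silent level on every array. B3gnt4, B3gnt7, B3gnt8 and B3gnt9 overlapped, between -0.10 and -0.03.

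The galactosyltransferases held 4 rises and 1 fall among 11 genes. Of 5 B3galt genes 2 rose and 1 fell (median 0.15). B3galt1, which adds galactose to N-acetylglucosamine and so makes type 1 chains, rose to 6.78, 6.89 and 6.68 in mutants, against 6.10, 6.08 and 5.99 in controls (0.73 ± 0.07, SE, n = 3 per group, adjusted p = 0.000738). B3galt5, an epithelial enzyme of the same linkage, went the other way, at 5.57, 5.92 and 5.61 in mutants and 6.45, 6.31 and 6.46 in controls (-0.71 ± 0.10, adjusted p = 0.0042). Both pairs of groups were wide apart, and the mutant values of B3galt5 reach the silent level, against which it was at least 1.5-fold lower.

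B3galt6, which adds a galactose of the proteoglycan linker, rose to 7.95, 8.16 and 7.87 in mutants, against 7.25, 7.42 and 7.32 in controls (0.67 ± 0.09, SE, n = 3 per group, adjusted p = 0.00307). Its groups were well apart. B4galt7, which acts one step earlier in the same linker, overlapped between the groups (0.03, adjusted p = 0.863). B3galt4, the GM1 ganglioside synthase, and B3galt2 were at 0.15 and 0.09, with all mutant values above the controls and without passing.

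Of 6 B4galt genes 2 rose, 0 fell and 4 did not pass (median 0.11). The genes that rose were the pair of lactosylceramide synthases, which make the precursor of most glycolipids. B4galt5 read 10.00, 10.05 and 10.05 in mutants and 9.40, 9.29 and 9.36 in controls (0.68 ± 0.06, SE, n = 3 per group, adjusted p = 0.000313). B4galt6 read 9.51, 9.49 and 9.50 in mutants and 9.08, 9.01 and 8.93 in controls (0.49 ± 0.06, adjusted p = 0.00194). In both genes the arrays of each group lay close together and the groups far apart. B4galt1, the general galactosyltransferase of N-glycans, read 9.74, 9.85 and 9.93 in mutants and 10.05, 10.04 and 10.08 in controls, below every control but not past the threshold (-0.21 ± 0.06, adjusted p = 0.0931). B4galt4 (0.18, adjusted p = 0.0973) lay above every control and B4galt3 (0.02) overlapped.

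**Figure D3:**
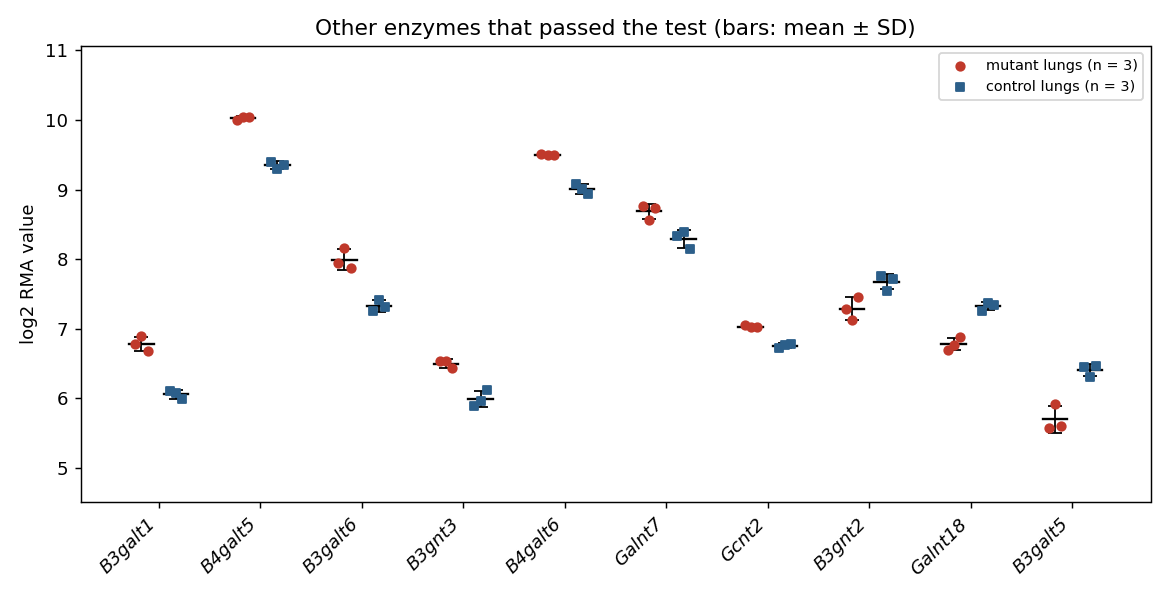
Log2 RMA values of the 10 enzymes other than sialyltransferases that passed the test, with 3 mutant arrays (red circles) left of 3 control arrays (blue squares); bars give mean ± SD. The groups do not overlap in any of them, and the differences between group means are largest for B3galt1, B3galt5, B4galt5 and B3galt6.

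Of 7 fucosyltransferases 0 passed in limma, while 2 had an unadjusted p under 0.05 (median -0.01). Fut11 read 9.49, 9.61 and 9.68 in mutants and 9.40, 9.28 and 9.29 in controls. The groups did not overlap, and its difference of 0.27 ± 0.07 (SE, n = 3 per group) fell just short (adjusted p = 0.0511) and passed without mutant 1 (0.33, adjusted p = 0.0305) and under 4 other settings (adjusted p from 0.0236 to 0.0498). Its second, dim feature read 5.51, 6.35 and 5.81 in mutants and 5.07, 5.38 and 5.80 in controls. Fut9, a Lewis x enzyme, was at -0.31 ± 0.10 with every array at or under the silent level (adjusted p = 0.135). Fut8, which adds the core fucose of N-glycans, stayed at -0.07, and Fut2, Fut4, Fut7 and Fut10 overlapped between -0.08 and 0.07.

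Of the 20 sialyltransferases 5 rose, 5 fell and 10 did not pass (median 0.04). Rises and falls occurred within the same family in St3gal, St6galnac and St8sia. Of 6 St3gal genes 2 rose and 1 fell. St3gal6, which sialylates lactosamine chains, rose to 10.06, 10.04 and 9.73 in mutants, against 9.13, 9.12 and 9.08 in controls (0.84 ± 0.09, SE, n = 3 per group, adjusted p = 0.00128). St3gal1, which caps the core 1 disaccharide, read 9.57, 9.78 and 9.71 in mutants and 9.29, 9.26 and 9.28 in controls (0.41 ± 0.07, adjusted p = 0.00911). In both genes the controls were tight and below every mutant.

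The second feature of St3gal1 disagreed, at 6.89, 6.80 and 6.83 in mutants and 6.97, 6.88 and 6.98 in controls. The mean of both features gave 0.15, which did not pass (adjusted p = 0.157), and without control 2 the adjusted p of the main feature was 0.0504. St3gal5, the GM3 synthase that opens ganglioside synthesis, fell to 8.51, 8.59 and 8.44 in mutants, against 9.01, 9.06 and 9.01 in controls (-0.51 ± 0.06, SE, n = 3 per group, adjusted p = 0.0017). Its groups were far apart. St3gal2 (0.14), St3gal3 (0.05) and St3gal4 (-0.02) overlapped, and St3gal3 read 9.58, 9.60 and 9.59 in mutants and 9.64, 9.52 and 9.47 in controls.

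St6gal1, which ends N-glycans with sialic acid, fell to 9.29, 9.36 and 9.46 in mutants, against 9.81, 9.80 and 9.78 in controls (-0.43 ± 0.06, SE, n = 3 per group, adjusted p = 0.00456). Each mutant lay below each control. The related St6gal2 overlapped (0.14, adjusted p = 0.433).

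Of 6 St6galnac genes 1 rose, 1 fell and 4 did not pass. St6galnac5, which acts on gangliosides, rose to 6.99, 7.91 and 7.90 in mutants, against 6.64, 6.42 and 6.48 in controls. It had the largest difference among the 70 enzymes and also a wide spread, since mutant 1 lay nearer to the controls (1.09 ± 0.23, SE, n = 3 per group, adjusted p = 0.0259). Its call ended without control 1, 2 or 3 or mutant 2 or 3 (adjusted p of 0.0748, 0.1004, 0.102, 0.0547 and 0.0805). Without mutant 1, which carried the high heart muscle values, St6galnac5 kept its call with a difference of 1.40. Its neighbour St6galnac3, the next protein-coding gene in GRCm38.p6, overlapped (-0.01, adjusted p = 0.974).

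St6galnac2, which sialylates the first sugar of O-glycans, read 7.68, 8.10 and 8.17 in mutants and 8.35, 8.69 and 8.65 in controls. Mutant 1 was lowest and all mutants lay below the controls (-0.58 ± 0.14, SE, n = 3 per group, adjusted p = 0.0474). The call ended whenever any array was left out, with adjusted p of 0.0528, 0.170 and 0.178 without controls 1 to 3 and of 0.0606, 0.0542 and 0.0507 without mutants 1 to 3, and with all features tested (0.0513). St6galnac1, its neighbour and the enzyme of the sialyl-Tn antigen, was at 0.10 (adjusted p = 0.666). St6galnac6 read 8.47, 8.61 and 8.68 in mutants and 8.61, 8.52 and 8.56 in controls (0.03), and St6galnac4, next to it, was at 0.06.

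Of 6 St8sia genes, which add sialic acid to sialic acid, 2 rose, 2 fell and 2 did not pass. St8sia2 and St8sia4 both make polysialic acid, the long polymer carried by the neural cell adhesion molecule. St8sia4 rose to 9.38, 9.42 and 9.14 in mutants, against 8.71, 8.68 and 8.50 in controls (0.68 ± 0.09, SE, n = 3 per group, adjusted p = 0.00363). St8sia2 fell to 8.13, 8.11 and 8.18 in mutants, against 8.62, 8.60 and 8.62 in controls (-0.47 ± 0.05, adjusted p = 0.00143). The groups were apart in both genes, in opposite directions. The log2 ratio of St8sia4 to St8sia2 within an array was 1.25, 1.31 and 0.96 in mutants and 0.09, 0.08 and -0.11 in controls. The change of 1.15 was computed after the values were seen. It restates the opposite differences of the same genes and is not a separate result.

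The upstream stretches of this pair are shown because the genes encode enzymes with the same product and moved in opposite directions. They follow the same conventions as those of the mucins, and each holds GC box letters in capitals and no match to the other 4 motifs.
St8sia2, chr7:74013683-74013932, minus strand: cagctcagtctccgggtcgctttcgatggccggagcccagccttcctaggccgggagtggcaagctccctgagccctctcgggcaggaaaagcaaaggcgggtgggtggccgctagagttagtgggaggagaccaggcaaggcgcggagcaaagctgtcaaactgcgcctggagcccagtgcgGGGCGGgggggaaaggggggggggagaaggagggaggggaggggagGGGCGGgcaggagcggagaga
St8sia4, chr1:95667595-95667844, minus strand: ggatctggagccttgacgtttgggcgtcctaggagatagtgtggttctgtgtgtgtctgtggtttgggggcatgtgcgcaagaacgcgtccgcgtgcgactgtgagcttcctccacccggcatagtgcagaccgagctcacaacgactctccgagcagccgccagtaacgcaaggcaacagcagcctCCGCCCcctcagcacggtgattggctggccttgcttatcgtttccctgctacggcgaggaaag

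St8sia1, the GD3 ganglioside synthase, rose to 6.75, 6.38 and 6.25 in mutants, against 5.99, 5.82 and 6.00 in controls (0.53 ± 0.12, SE, n = 3 per group, adjusted p = 0.0394). Mutant 1 was highest, and the call ended without control 1, 2 or 3 or mutant 2 (adjusted p of 0.109, 0.148, 0.109 and 0.0509). St8sia6, which acts on O-glycans, fell to 6.33, 6.34 and 6.27 in mutants, against 6.90, 6.59 and 6.83 in controls (-0.46 ± 0.08, adjusted p = 0.0148). All mutants lay below the controls, and the call ended without control 1, control 3 or mutant 3 (adjusted p of 0.0609, 0.0752 and 0.0525). St8sia3 and St8sia5, known for brain gangliosides, were at or under the silent level on every array (0.03 and 0.0003).

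**Figure D4:**
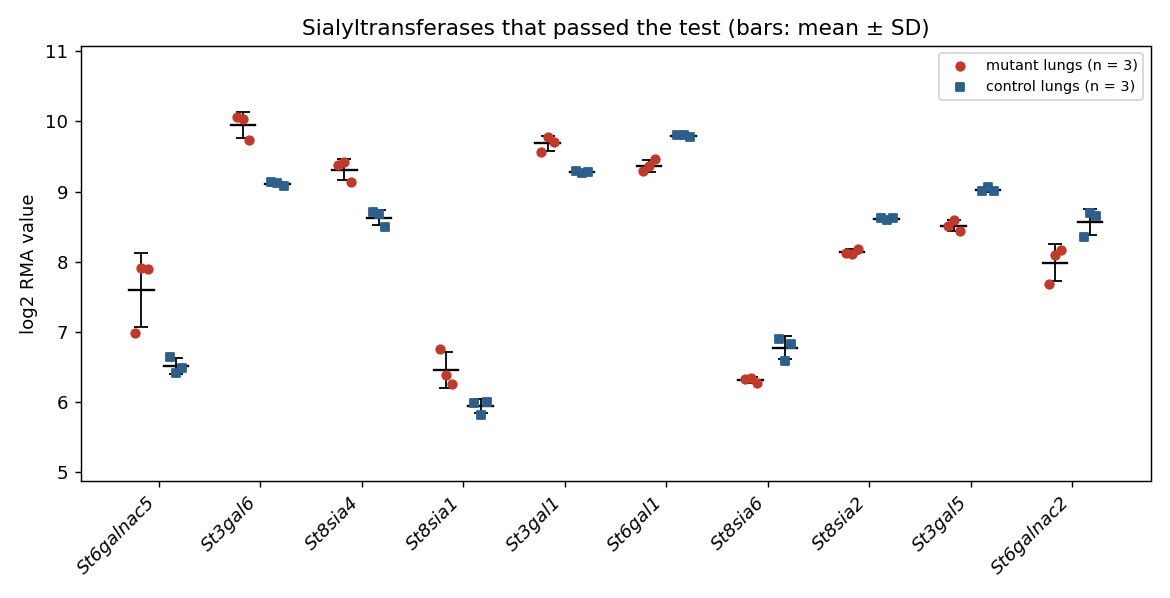
Log2 RMA values of the 10 sialyltransferases that passed the test, with 3 mutant arrays (red circles) left of 3 control arrays (blue squares); bars give mean ± SD. St6galnac5, St3gal6, St8sia4, St8sia1 and St3gal1 are higher and St6gal1, St8sia6, St8sia2, St3gal5 and St6galnac2 lower in mutants, and mutant 1 lies below mutants 2 and 3 in St6galnac5 and St6galnac2.

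In no pair of neighbouring genes did both pass the test. With 26.8% of the 82 genes passing, 9 pairs are too few for the lack of such a pair to be informative, and no conclusion is drawn. Of 9 pairs of these genes that lie next to each other among protein-coding genes of GRCm38.p6, 4 hold 1 gene that passed and 1 that did not, and 5 hold none that passed. The 4 mixed pairs were St6galnac2 with St6galnac1, Muc4 with Muc20, St6galnac5 with St6galnac3 and Galnt7 with Galntl6. The run of gel-forming mucins Muc6, Muc2, Muc5ac and Muc5b made up 3 of the others. Among the genes of these pairs Muc20, Galntl6, Muc6 and Galntl5 were at or under the silent level on every array.

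The companion lists covered the rest of the pathway. Of 19 other O-glycan chain enzymes 1 rose, 0 fell and 18 did not pass (median 0.07). It was B4galnt4, which makes the LacdiNAc unit, at 8.26, 8.32 and 8.43 in mutants and 8.05, 7.95 and 7.80 in controls (0.41 ± 0.08, SE, n = 3 per group, adjusted p = 0.0209). The core 1 synthase C1galt1 and its chaperone C1galt1c1, named for their role and not by the rule, stood at -0.22 and 0.19, short of the threshold (adjusted p of 0.0589 and 0.399). Of 22 genes of sialic acid and sugar nucleotide supply 1 rose and 1 fell (median 0.04). Gne, the rate-limiting enzyme of sialic acid synthesis, fell to 9.23, 9.05 and 9.29 in mutants, against 9.58, 9.49 and 9.49 in controls (-0.33 ± 0.07, adjusted p = 0.0359). Gfpt2, which starts the hexosamine pathway, rose to 8.78, 8.68 and 8.53 in mutants, against 8.25, 8.19 and 7.98 in controls (0.52 ± 0.09, adjusted p = 0.0129). Both genes had groups that did not overlap.

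Of 17 sialidases, fucosidases and glycan modifiers 2 fell and 0 rose (median -0.11), the sulfotransferase gene Chst5 (-0.59 ± 0.08, SE, n = 3 per group, adjusted p = 0.00367) and the fucosidase gene Fuca2 (-0.36 ± 0.08, adjusted p = 0.0291). Of 18 mucin-like proteins without a Muc symbol 3 fell and 1 rose (median -0.15). Podoplanin, encoded by Pdpn and a marker of future alveolar type I cells, was at -0.52 ± 0.10 (adjusted p = 0.0169), dystroglycan (Dag1) at -0.33 and Cd164l2 at -0.30, and Parm1 at 0.30 ± 0.05 (adjusted p = 0.0136). Of 17 genes of the mucous cell programme 1 fell, Foxa3 (-0.45 ± 0.08, adjusted p = 0.0132), and 0 rose (median -0.05). Foxa3 read 5.39, 5.25 and 5.54 in mutants and 5.78, 5.85 and 5.90 in controls, so even its controls lay close to the silent level of 5.77. The largest difference in this list went the other way, Clca1 at 0.80, and did not pass (limma adjusted p = 0.0831). Mutant values lay wholly above the controls in 1 gene of this list and wholly below in 6. Of 18 lectins and other readers of these glycans 1 rose, the galectin gene Lgals9 (0.51 ± 0.12, adjusted p = 0.0432), and 0 fell (median -0.01).

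Over the 6 companion lists 11 of 111 genes passed (9.91%, near the 7.66% of all genes), and 5, 3 and 2 passed without control 1, control 2 and control 3. Chst5 and Gfpt2 passed with each array left out in turn. The calls of the other 9 ended with at least 2 of the 6 arrays left out, with the highest adjusted p between 0.0687 for Foxa3 and 0.173 for Dag1, both without control 3. The lung epithelium and smooth muscle markers fell in the same mutant lungs (median differences of -0.49 and -1.58). The part of either tissue in the falls of Muc1, Muc4, B3galt5, St6gal1 and the other genes that fell was not tested. Csf1r and Cx3cr1, the leukocyte markers that passed, were at 0.43 and 0.39. Over the 10 leukocyte markers, mutant values lay wholly above the controls in 5. They lay wholly below in 1 (Lcp1, -0.26) and overlapped in 4, Ptprc (0.17) among them. The part of leukocytes in the rises of Lgals9 or St8sia4 was not tested.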

How the data were processed

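RNA of 6 embryonic lungs was hybridised to single-colour Affymetrix arrays from 100 ng of total RNA, per the labels' protocols. The deposited log2 values were made by the authors with oligo, RMA and limma, per the submitters' processing notes. No settings were found in those notes. RMA compresses differences of dim genes, so their folds are low estimates. The number of arrays limits the precision, and each sample is described as an embryo.

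Of 35556 features, 21789 carry 1 gene symbol and 1621 several in the platform annotation, which is from GEO and can be old. Features with 1 symbol were used, with the feature of the highest mean per gene (78 of the 82 genes have 1 feature), and 81 of 82 matched RefSeq by Entrez identifier, with 0 symbols changed. Mutant and control lungs were compared with limma 3.58.1 in R 4.3.3 (two-sided, genotype as the only term, Benjamini-Hochberg over all genes, threshold 0.05, 7.96 moderated degrees of freedom). The step was also run on simulated data with independent noise around each gene's mean. That simulation had no array effects and the same spread in both groups, so it does not cover these features of the data. Every gene of the rule may be named. Values per array are given for those past the threshold and for the highest mean of each family. In each companion list up to 4 genes past the threshold are named, some with values per array and others with their difference only. The genes and lists were chosen with earlier results of these data known. Same-numbered arrays had deviations correlated at -0.07, 0.05 and 0.15, and the other combinations lay between -0.15 and 0.08. With 3 arrays per group these correlations cannot decide whether the numbers mark pairs. The main test did not take them as pairs.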

Additional observations from a re-analysis of the deposited data

How the results depend on the processing

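Over 14 alternatives (scaling, dim-gene filter, features, variance model, array weights, replicate block, each array left out), 14 of the 22 changed genes kept their call in each that tested them (13 for B3galt5, which the dim-gene filter left out), 8 lost it in at least 1, and 0 changed sign. A further 4 genes, B3gnt5, Fut11, Galnt3 and Galnt12, passed in at least 1. The count of 22 was 15 to 20 with single arrays left out and 8 (6 higher, 2 lower) when 1.5-fold was also required. Of all genes 1528 passed, 778 to 1745 with single arrays left out and 549 at 1.5-fold. The 11 companion genes became 2 to 14 with single arrays left out, 19 with array weights, 19 at an adjusted p of 0.1, 1 at 1.5-fold and 4 with the replicate block. Under that block 21 of the 82 genes passed, 20 of them shared with the 22, while Galnt7 and Gcnt2 did not (adjusted p of 0.0625 and 0.0711) and Galnt3 did (0.0470). Without the dimmest genes, which leaves fewer members per family, the median difference was -1.94 for Muc, 0.31 for Gcnt and 0.67 for B3galt. The filter left only Muc1 and Muc4, the mucins that fell, so the Muc value does not describe the family. It left only Gcnt1 and Gcnt2 of the Gcnt genes, and only B3galt1, B3galt4 and B3galt6 of the B3galt genes. That of St3gal lay between 0.065 and 0.13 with single arrays left out. Among dim genes, a fall may be hidden in the 17 members at or under the silent level.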
